A study of Homo sapiens with 6 samples.

Results

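The genes described here are 10 members of the Notch pathway: the receptors NOTCH1, NOTCH2, NOTCH3 and NOTCH4, the ligands JAG1, JAG2 and DLL1, and the target genes HES1, HEY1 and HEY2. They were taken by exact gene symbol from a table of 44591 listed genes, and all 10 were found. The RNA came from A2780 cells, a human ovarian cancer cell line, of wild-type genotype, grown in DMEM with fetal bovine serum. In 3 libraries the cells were untreated, and in 3 libraries recombinant human CRMP2 (r-CRMP2) had been added to the medium at 40 ng/ml, all at 48 h. The study asked which signalling pathways of ovarian cancer cells respond to CRMP2, a tubulin-binding protein that the study considers as a signal from the fibroblasts of a tumour. A single cell line, 1 dose and 1 time were sequenced, with no other protein as a control, and the sources do not say whether the 3 libraries of a group came from separate cultures, so the p-values measure only the spread between these libraries.

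Notch receptors are cleaved in the secretory pathway, reach the cell surface and are bound by ligands of the Jagged and Delta families on a neighbouring cell. Binding allows further cleavage, the last by gamma-secretase, and the freed intracellular domain enters the nucleus, where it joins the DNA-binding protein RBPJ and a Mastermind coactivator. Genes of the HES and HEY families, which encode basic helix-loop-helix repressors, are the best known direct targets. Jagged ligands and Notch receptors have been studied in ovarian carcinoma for their part in growth, invasion and drug resistance.

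The letters that RBPJ reads, TGGGAA on either strand, were searched in the 250 bases before the annotated start of each member, and the windows of HES1 and HEY2 are shown because these related genes differed in level, HES1 passing the test and HEY2 having too few counts for it. RefSeq promoters on GRCh38.p14 were at hand for 8 of the 10 members. HEY1 and DLL1 had none there, so their promoters were not searched. The sequences of HES1 (chr3:194135898-194136147, plus strand) and HEY2 (chr6:125749382-125749631, plus strand) are given 5′ to 3′, with each match to TGGGAA or its reverse complement TTCCCA in capitals.
HES1: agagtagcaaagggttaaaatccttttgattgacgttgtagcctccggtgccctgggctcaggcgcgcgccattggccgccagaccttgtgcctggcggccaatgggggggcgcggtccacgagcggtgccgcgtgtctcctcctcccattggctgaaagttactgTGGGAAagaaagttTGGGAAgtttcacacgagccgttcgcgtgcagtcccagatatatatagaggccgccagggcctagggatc
HEY2: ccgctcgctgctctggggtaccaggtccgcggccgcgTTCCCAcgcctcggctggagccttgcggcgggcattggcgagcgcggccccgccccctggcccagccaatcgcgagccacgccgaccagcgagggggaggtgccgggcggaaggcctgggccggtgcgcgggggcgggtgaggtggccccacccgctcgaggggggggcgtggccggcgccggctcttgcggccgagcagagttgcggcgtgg

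The HES1 window held 2 matches, both on the plus strand and 8 bases apart, the first beginning 84 bases and the second 70 bases before the start of the gene. The HEY2 window held 1 match, on the minus strand, 213 to 208 bases before the start, and another match spanned the start itself, with 3 bases before it and 3 after. None of the other 6 promoters searched held one. Of 35116 promoters in the RefSeq table, 20.8% held at least 1 match in the same window and 2.9% held at least 2. The letters CACGCG, a site that HES and HEY repressors bind, occurred 2 times in the HES1 window and once in that of JAG2, against at least 1 match in 9.72% of all promoters. ACGTG, a form of the core bound by hypoxia-inducible factors, occurred once in the JAG1 window and in no other, against 18.5% of promoters. The longer CACGTG, which contains ACGTG, was in none of the 8 windows searched. GCGTG, another form of that core, was not searched, and it occurs in the printed windows of HES1 and HEY2. A match to these letters describes the sequence and is not evidence of a bound site.

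Library totals ran from 21888530 to 25711353 counts. The number of genes with a count above 0 was 25972 to 26302 without r-CRMP2 and 22438 to 25488 with it. The lowest was r-CRMP2 replicate 3, although its total of 25711353 counts was the largest. Levels are given as CPM, the count of a gene relative to the library total after scaling by the trimmed mean of M values (TMM), and levels of different genes are compared only in TPM, a share of transcripts that also divides by gene length. Of the markers fixed for ovarian carcinoma cells, 7 of 10 were at 1 TPM or more in every library (PAX8, MUC16, MSLN, EPCAM, KRT7, KRT8 and KRT18), and WT1, WFDC2 and ESR1 were not. Of 8 fibroblast markers 7 were at 1 TPM or more in every library, and the sum of the list was 226 to 266 TPM without and 158 to 170.3 TPM with r-CRMP2. COL1A1 carried most of that sum and was lower (edgeR, log2 fold change -0.41, adjusted p = 3.81e-05), as was PDGFRB (-0.41, 0.000844), while COL1A2 (0.35, 0.00105) and LUM (0.53, 0.0444) were higher and COL3A1, ACTA2 and DCN did not pass. The 5 leukocyte markers summed to 28.6 to 33.9 TPM without and 77.7 to 78.8 TPM with r-CRMP2, CD68 alone being at 1 TPM or more and CD3E at 0 in every r-CRMP2 library. CD68 carried that sum and was higher (edgeR, log2 fold change 1.685, adjusted p = 3.01e-12). CD14 went the other way, from 0.477, 0.835 and 0.545 TPM without to 0.157, 0 and 0.047 TPM with r-CRMP2, and was not tested. The part of these lists in the results was not tested.

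Of the 10 members, 8 passed the filter on low counts, 5 of which were higher with r-CRMP2, 1 was lower and 2 did not pass the adjusted p threshold of 0.05. Among all 16222 genes tested, 58.2% passed that threshold, 28.2% higher and 30.1% lower. HES1 and HEY1 were also past a log2 fold change of 1, as were 5.12% of all genes in that direction, and no member was past it on the lower side, where 8.86% of all genes were. The groups did not overlap for 5 of the 8 on the higher side and 2 on the lower side, and for 30.9% and 33.3% of all genes. The median log2 fold change over all genes was -0.03. The members were chosen with earlier results of these data known, so these shares are a description and not an independent comparison. In bulk RNA, a change in the number of expressing cells and a change of RNA per cell cannot be told apart. With 3 libraries against 3, an exact permutation test of a single value cannot give a p below 0.10.

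**Figure D1:**
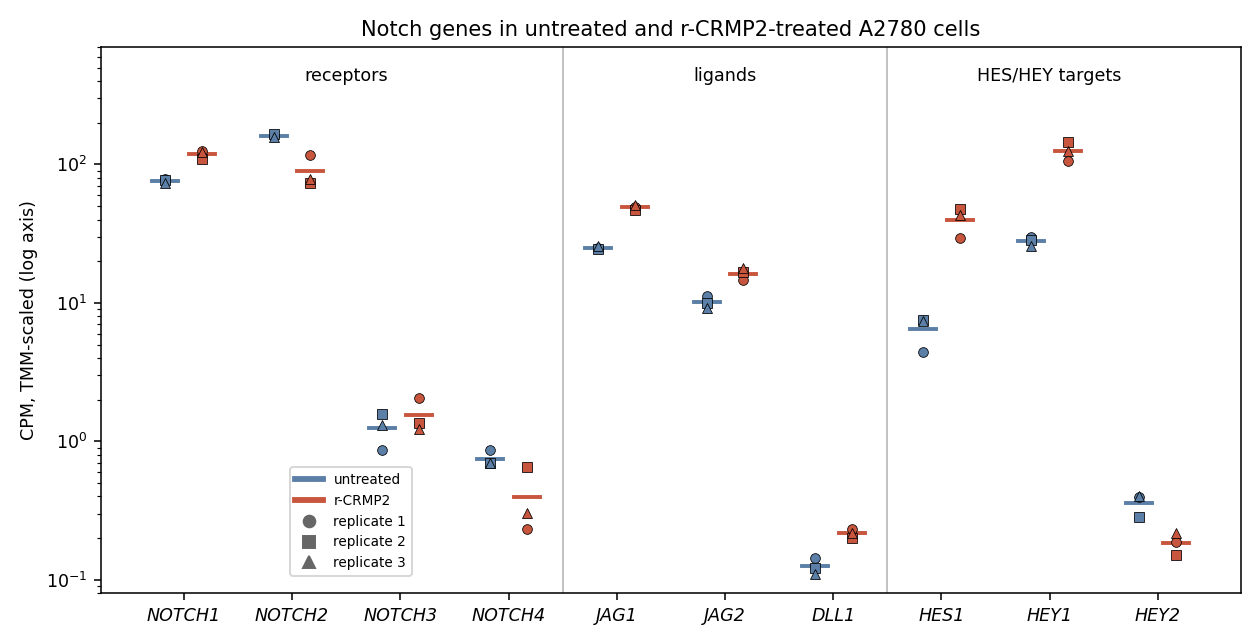
TMM-scaled CPM of the 10 members, on a log axis, in each of the 3 untreated and 3 r-CRMP2 libraries, with 1 point per library and a bar at the group mean. The 3 r-CRMP2 points of HES1 and HEY1 lie well above the untreated points, those of NOTCH2 lie below, and those of NOTCH3 overlap.

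JAG1, a ligand of the Jagged family that is expressed in many carcinomas, was at 24.7, 24.3 and 25.9 CPM in untreated replicates 1 to 3 and at 49.1, 47.0 and 50.7 CPM in r-CRMP2 replicates 1 to 3. The groups did not overlap, and the spread within each was small beside the gap. The mean rose from 25.0 ± 0.804 to 48.9 ± 1.89 CPM (SD, n = 3), a log2 fold change of 0.97 (SE 0.042, adjusted p = 1.71e-09 by the quasi-likelihood test of edgeR, Benjamini-Hochberg adjusted). The gene lies on the minus strand of chromosome 20, from 10618332 to 10654694 in hg19, the build of the deposited positions.

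JAG2, the other Jagged ligand, was at 11.2, 9.98 and 9.14 CPM without and 14.6, 16.6 and 17.8 CPM with r-CRMP2. Its lowest r-CRMP2 library was above its highest untreated library. The mean rose from 10.1 ± 1.06 to 16.3 ± 1.62 CPM (SD, n = 3), a log2 fold change of 0.69 (SE 0.12, edgeR quasi-likelihood test, adjusted p = 3.44e-05). JAG2 lies on the minus strand of chromosome 14, from 105607318 to 105635161. A stretch of 474 bases, 8.12% of its transcript, is 99.8% identical to the gene AL512356.1 in GENCODE v29, so reads from that stretch could be counted for either.

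DLL1, a ligand of the Delta family on chromosome 6 (170591294 to 170599697, minus strand), was close to the floor, with counts of 4, 3 and 3 in untreated and 5, 4 and 5 in r-CRMP2 libraries. Its groups did not overlap in CPM, as for 64.2% of all genes tested. DLL1 did not pass the filter on low counts, and with all genes kept it did not pass the test (edgeR, log2 fold change 0.765, adjusted p = 0.582). A difference was not detectable at this depth. Summed over the 3 ligands, the level was 14.3 to 14.6 TPM in untreated and 19.9 to 22.7 TPM in r-CRMP2 libraries, and JAG1 made up the larger share in both groups. That share was 70.2 ± 2.66% without and 74.1 ± 1.80% with r-CRMP2 (SD, n = 3, exact two-sided permutation p = 0.2), and the ranges met at 73.0%.

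NOTCH1, the receptor most often studied in cancer, was at 78.7, 76.7 and 73.3 CPM without r-CRMP2 and at 126, 110.3 and 122 CPM with it. The lowest r-CRMP2 value lay above the highest untreated value. The mean rose from 76.2 ± 2.71 to 119.5 ± 8.23 CPM (SD, n = 3), a log2 fold change of 0.65 (SE 0.065, edgeR quasi-likelihood test, adjusted p = 1.08e-07). NOTCH1 lies on the minus strand of chromosome 9, from 139388885 to 139440238. The antisense transcript ENSG00000227512.1 overlaps it by 955 bases and had 2 to 12 counts in a library.

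NOTCH2 moved the other way. It was at 161, 164.5 and 158.5 CPM in untreated libraries and at 116, 73.7 and 78.8 CPM in r-CRMP2 libraries. The untreated libraries lay close together, and r-CRMP2 replicate 1 was higher than the other two of its group. The mean fell from 161 ± 2.99 to 89.5 ± 23.1 CPM (SD, n = 3), a log2 fold change of -0.85 (SE 0.21, edgeR quasi-likelihood test, adjusted p = 2.44e-06). Without r-CRMP2 replicate 1, the log2 fold change was -1.07.

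The NOTCH2 gene (chromosome 1, 120454176 to 120612317, minus strand) has partial copies in the human genome, and NOTCH2NL, at 145209113 to 145286270 of the same chromosome, was counted separately. Stretches of up to 980 bases of the NOTCH2 transcript, 8.6% of its 11389 bases, match other genes at 97% identity or more in GENCODE v29, so part of its reads could be split with them. NOTCH2NL was at 38.0 ± 0.876 CPM without and 40.4 ± 0.699 CPM with r-CRMP2 (SD, n = 3, log2 fold change 0.09, edgeR quasi-likelihood test, adjusted p = 0.28). With library size in place of TMM it was lower, by -0.22 on the log2 scale (adjusted p = 0.0123 in the same test), against -1.16 for NOTCH2.

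NOTCH3 and NOTCH4 were expressed at a low level. NOTCH3 (chromosome 19, 15270444 to 15311792, minus strand) had counts of 24, 39 and 36 in untreated and 44, 27 and 28 in r-CRMP2 libraries, and the groups overlapped. Its log2 fold change was 0.31 (SE 0.33, edgeR quasi-likelihood test, adjusted p = 0.413), and it was -0.001 with library size in place of TMM. NOTCH4, a receptor best known in endothelium (chromosome 6, 32162620 to 32191844, minus strand), had counts of 24, 17 and 19 without r-CRMP2 and 5, 13 and 7 with it.

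The NOTCH4 groups did not overlap, and its log2 fold change was -0.93 (SE 0.38), but it did not pass after adjustment (edgeR quasi-likelihood test, adjusted p = 0.0746). Groups did not overlap for 64.2% of all genes tested. It was called without r-CRMP2 replicate 2, at -1.45 (adjusted p = 0.0216 in the same test), and with library size in place of TMM, at -1.24 (adjusted p = 0.0173). Over 681 bases NOTCH4 overlaps GPSM3 on the same strand, which had 47 to 62 counts in untreated and 28 to 41 in r-CRMP2 libraries (edgeR, log2 fold change -0.39, adjusted p = 0.187). Summed TPM of 6 endothelial markers also moved, from 4.31 to 4.67 in untreated libraries to between 1.10 and 1.56 in r-CRMP2 libraries. CDH5, the only one at 1 TPM or more in untreated libraries, was at -1.96 on the log2 scale (edgeR, adjusted p = 8.48e-08). PECAM1 (-1.41, adjusted p = 0.0515), VWF (-0.45, 0.589) and TEK (-0.28, 0.47) did not pass in the same test, and TIE1 and EMCN were not tested. The part of endothelial genes in the values of NOTCH4 was not tested.

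**Figure D2:**
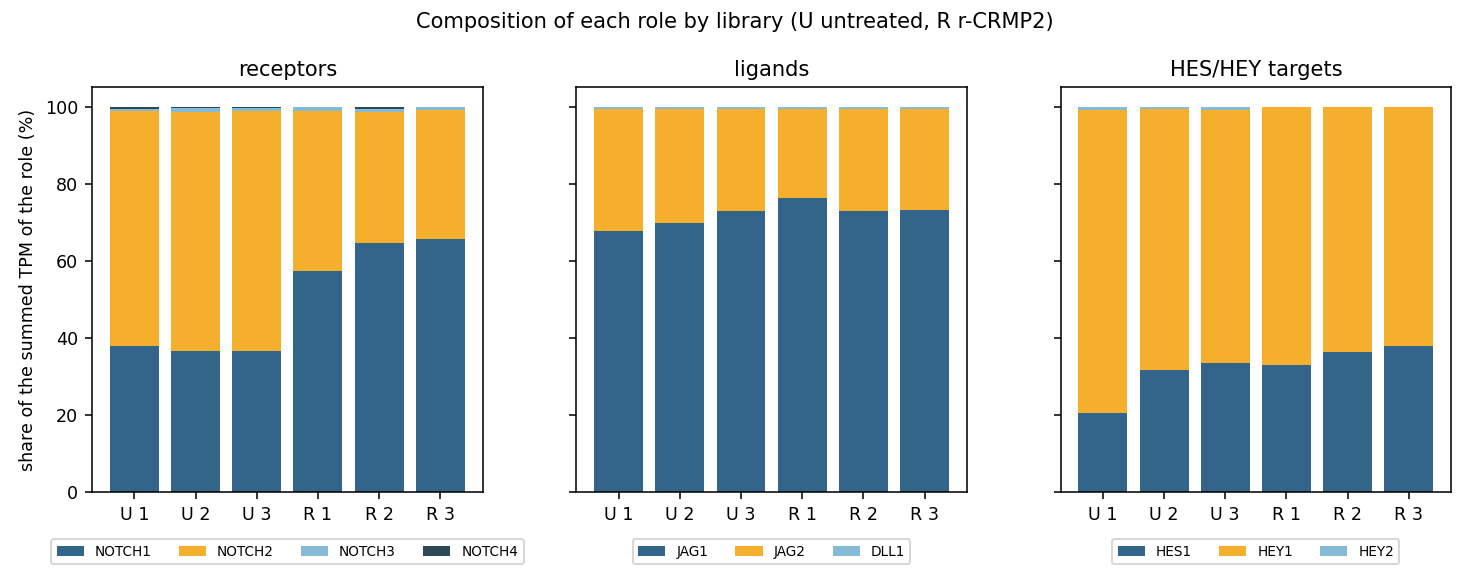
Share of each member in the summed TPM of its role (receptors, ligands, HES/HEY targets), in percent, for each of the 3 untreated and 3 r-CRMP2 libraries. NOTCH2 made up 61.1% to 62.2% of receptor transcripts in untreated libraries and 33.3% to 41.5% in r-CRMP2 libraries, and NOTCH1 took the larger share there.

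Because NOTCH1 and NOTCH2 moved in opposite directions, the make-up of the receptor pool differed between the groups. In the plot of shares by role, NOTCH2 was at 61.7 ± 0.588% of summed receptor TPM without and 36.3 ± 4.57% with r-CRMP2 (SD, n = 3), a difference of -25.5 percentage points (exact two-sided permutation p = 0.1, the smallest that 3 against 3 allow). NOTCH1 was at 37.1 ± 0.713% and 62.5 ± 4.6%. The ratio of NOTCH1 to NOTCH2 was 0.62, 0.593 and 0.588 in untreated libraries and 1.38, 1.90 and 1.97 in r-CRMP2 libraries, so it was below 1 in all of the first and above 1 in all of the second. This ratio is taken within a library and does not depend on the scaling between libraries. NOTCH3 and NOTCH4 were a small part of the pool, each at 1.08% or less. Summed receptor level was 52.7 to 55.4 TPM without and 33.9 to 47.9 TPM with r-CRMP2. TPM does not carry the TMM scaling, and in TMM-scaled CPM, tried after seeing the data, the sums overlapped, at 241.6, 243.5 and 233.8 CPM without and 244.3, 186 and 202.7 CPM with r-CRMP2 (exact two-sided permutation p = 0.4).

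HES1, a repressor that keeps progenitor cells undifferentiated and one of the first targets to respond when Notch is activated, had the largest log2 fold change of the 8 members tested. Its counts were 123, 184 and 202 in untreated and 627, 936 and 994 in r-CRMP2 libraries, or 4.423, 7.498 and 7.384 CPM against 29.4, 47.3 and 43.3 CPM. Replicate 1 was the lowest of its group on both sides, and the groups were far apart.

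The mean of HES1 rose 6.21-fold, from 6.43 ± 1.74 to 40.0 ± 9.43 CPM (SD, n = 3), a log2 fold change of 2.64 (SE 0.33, edgeR quasi-likelihood test, adjusted p = 2.03e-10). HES1 lies on the plus strand of chromosome 3, from 193853931 to 193856401 in hg19. In every alternative run its log2 fold change stayed between 2.32 and 2.83.

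HEY1, a HES-related repressor with a part in blood vessel and heart development, was at 30.1, 28.4 and 25.6 CPM without and 105.6, 146 and 124.5 CPM with r-CRMP2. No r-CRMP2 library came near the untreated ones. The mean rose 4.48-fold, from 28.0 ± 2.28 to 125.5 ± 20.4 CPM (SD, n = 3), a log2 fold change of 2.16 (SE 0.15, edgeR quasi-likelihood test, adjusted p = 1.66e-12). HEY1 lies on the minus strand of chromosome 8, from 80676245 to 80680098.

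HEY2, the nearest relative of HEY1 among the members, had few counts. Its counts were 11, 7 and 11 in untreated and 4, 3 and 5 in r-CRMP2 libraries, so that all r-CRMP2 libraries were below all untreated ones. It did not pass the filter on low counts, and with all genes kept it did not pass the test (edgeR, log2 fold change -0.95, adjusted p = 0.365). The gene lies on the plus strand of chromosome 6, from 126070732 to 126082415. HES1 and HEY1, then, were many times higher than HEY2 in every library.

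Summed over HES1, HEY1 and HEY2, the level was 35.6 to 40.1 TPM without and 124 to 165 TPM with r-CRMP2. HES1 and HEY1 carried the sum, with HES1 at 28.5 ± 7.05% and 35.7 ± 2.61% of it (SD, n = 3, exact two-sided permutation p = 0.2), and the ranges of that share overlapped. Set against the receptors in the same library, transcripts of HES1, HEY1 and HEY2 were 0.665, 0.724 and 0.702 of the receptor sum in untreated libraries and 2.59, 4.86 and 3.90 times that sum in r-CRMP2 libraries. Receptor transcripts thus outnumbered those of HES1, HEY1 and HEY2 in each untreated library, and the reverse held in each r-CRMP2 library. The comparison covers only the members summed. HES4 and HES7, also expressed in untreated libraries (33.0 ± 3.36 and 52.2 ± 4.56 CPM, SD, n = 3), are not in the sum.

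**Figure D3:**
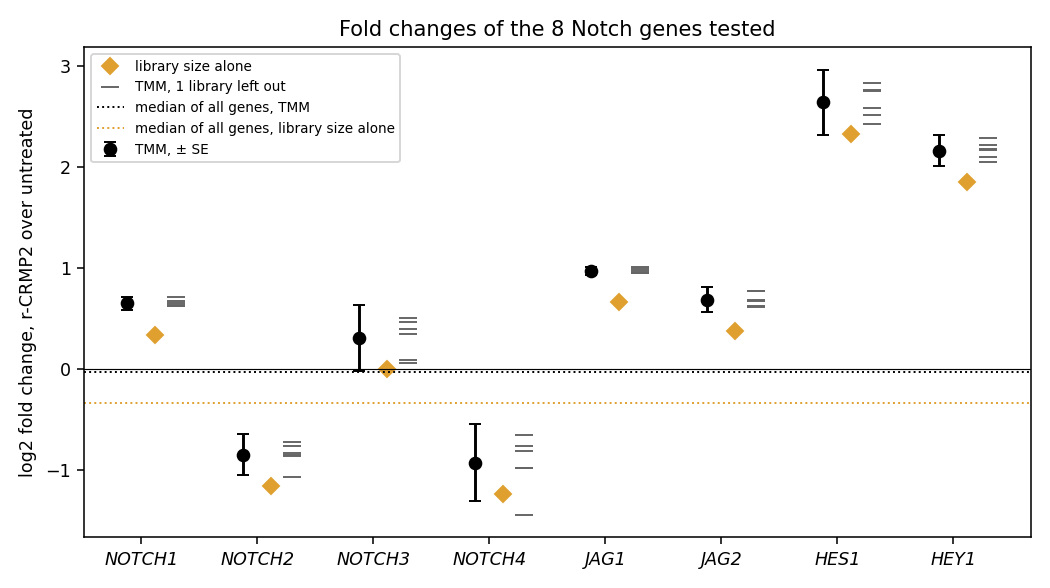
Log2 fold change (r-CRMP2 over untreated) of the 8 members tested, as black points with bars of 1 SE for TMM scaling, orange diamonds for library size alone and dashes for each fit that leaves out 1 library, with dotted lines at the median of all genes under both scalings. HES1 and HEY1 lie above 1 and NOTCH2 below 0 in every setting shown, and NOTCH3 lies at 0 with library size alone.

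Ordered by TPM, untreated cells had NOTCH2 first (32.7 to 34.3 TPM), then HEY1 (24.2 to 27.9) and NOTCH1 (19.3 to 20.4), with no overlap between neighbours. HES1 (7.25 to 12.7 TPM) and JAG1 (9.90 to 10.6 TPM) overlapped and could not be ordered, JAG2 followed at 3.83 to 4.62 TPM, and NOTCH3, HEY2 and NOTCH4 overlapped from one to the next below 0.5 TPM, above DLL1. In r-CRMP2 libraries HEY1 was first (83.0 to 105 TPM), then HES1 (40.7 to 59.8 TPM) and NOTCH1 (21.9 to 27.4 TPM). NOTCH2 (11.5 to 19.9 TPM) overlapped with JAG1 (14.5 to 16.6 TPM) and was above JAG2 (5.05 to 5.98 TPM). NOTCH2 thus went from first to a place shared with JAG1, and HEY1 and HES1 moved above every receptor.

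The list of other pathway genes was also chosen with earlier results of these data known. Beyond the members, 73 further genes of the pathway were listed by role, of which 62 passed the filter. Of these 26 were higher, 16 were lower and 20 did not pass, so that 67.7% were called against 58.2% of all genes, and their median log2 fold change was 0.11 against -0.03. These counts depended on the scaling: with library size in place of TMM, which moved the median of all genes to -0.34, 10 were higher and 27 lower, and 23 of the 62 changed direction. By role, the genes higher and lower with library size alone were 2 and 8 for receptor processing, 1 and 5 for ubiquitin ligases and endocytosis, 3 and 5 for coactivators, 1 and 6 for corepressors, 1 and 1 for other ligands, and 2 and 2 for other HES/HEY genes and targets. The directions given for the other pathway genes are relative to the median of all genes.

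**Figure D4:**
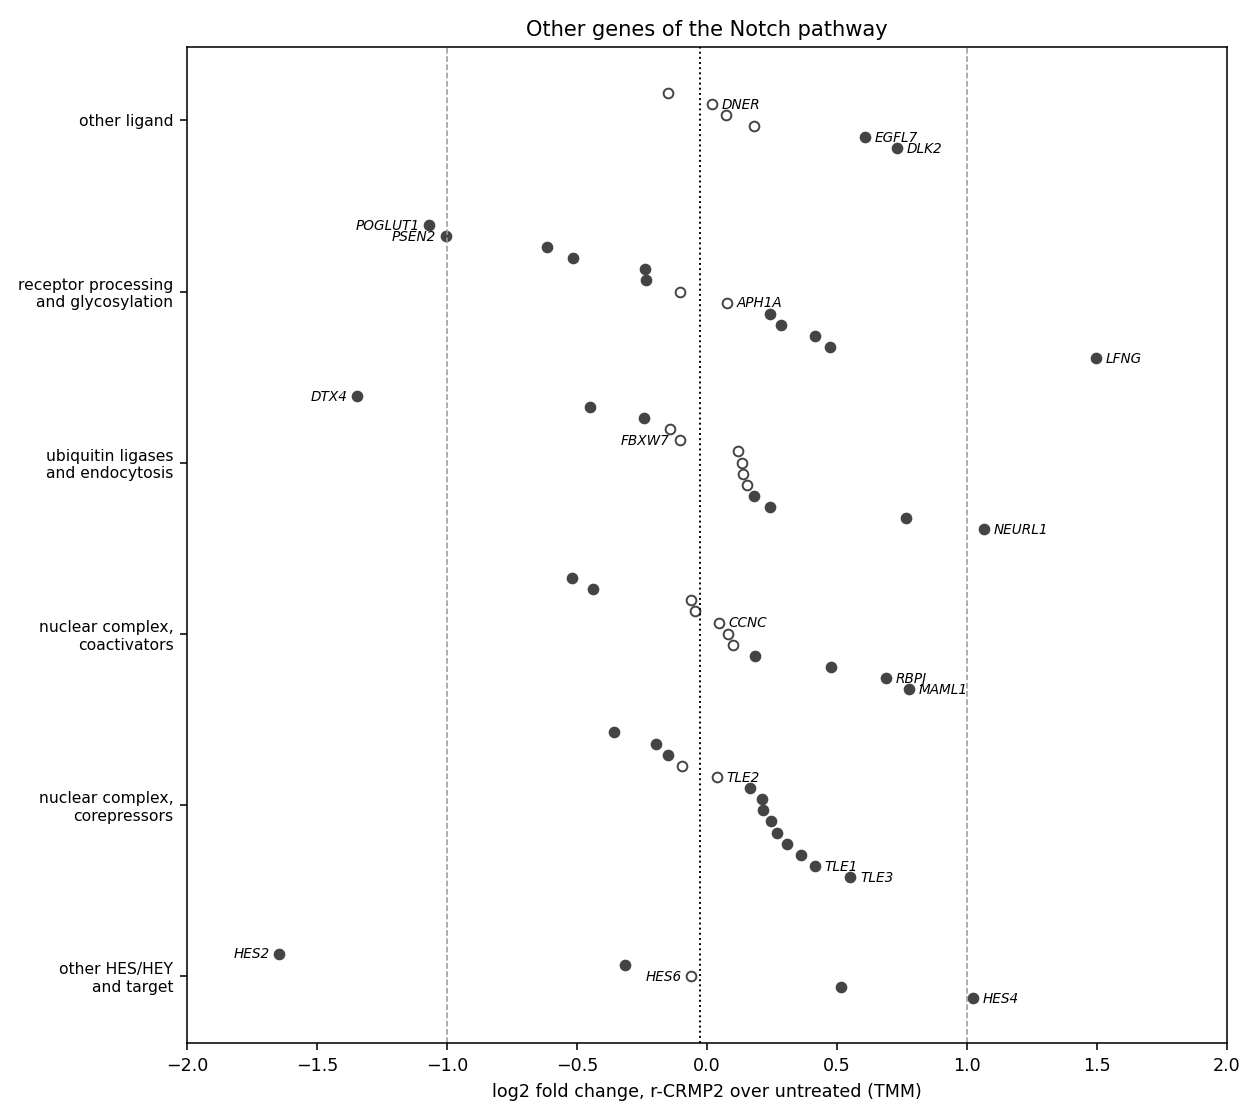
Log2 fold change (r-CRMP2 over untreated, TMM scaling) of the 62 other pathway genes tested, in 6 roles. Filled points passed an adjusted p of 0.05 and open points did not, dashed lines mark a log2 fold change of 1 in either direction, and the dotted line marks the median of all genes. LFNG, HES4 and NEURL1 lie beyond 1 on the higher side and HES2, DTX4, POGLUT1 and PSEN2 on the lower side.

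Of 13 genes for receptor processing and glycosylation, 5 were higher and 6 lower, against 28.2% and 30.1% of all genes. LFNG, a Fringe glycosyltransferase that alters which ligands a receptor answers to, rose from 6.95 ± 0.822 to 19.6 ± 3.42 CPM (SD, n = 3), a log2 fold change of 1.49 (SE 0.17, edgeR, adjusted p = 1.33e-08). POGLUT1, which adds O-glucose to Notch receptors, fell by 1.07 on the log2 scale (edgeR, adjusted p = 1.06e-05). POGLUT1 stayed called but fell by less than 1 without untreated replicate 3 (-0.975) or r-CRMP2 replicate 3 (-0.910). PSEN2, a catalytic subunit of gamma-secretase, fell by 1.004 (edgeR, adjusted p = 4.42e-06). It stayed called but fell by less than 1 with RLE factors (-0.984) and with DESeq2 (-0.983). The same held without untreated replicate 1 (-0.986), untreated replicate 3 (-0.941) or r-CRMP2 replicate 3 (-0.852). APH1A, another gamma-secretase subunit, was at 0.08 with TMM (edgeR, adjusted p = 0.292) and at -0.24 with library size alone (adjusted p = 0.00185).

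A further 3 genes of gamma-secretase subunits were picked out after their values were seen. APH1B was at -0.52 and PSENEN at -0.23 on the log2 scale, with adjusted p by edgeR of 0.00276 and 0.0366, and NCSTN rose by 0.47 (edgeR, adjusted p = 4.93e-06). The PSENEN groups overlapped, and its call was lost in 6 of the alternatives. Subunits of this complex thus moved in both directions.

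Of 13 ubiquitin ligases and endocytosis genes, 4 were higher and 3 lower, against 28.2% and 30.1% of all genes. DTX4, a Deltex ubiquitin ligase, fell from 27.3 ± 0.904 to 10.8 ± 0.123 CPM (SD, n = 3), a log2 fold change of -1.35 (SE 0.029, edgeR, adjusted p = 2.47e-10). NEURL1, a ligase that acts on ligands, was at 1.06 (edgeR, adjusted p = 0.016) on 11 to 20 counts in untreated and 21 to 28 in r-CRMP2 libraries, and with library size alone it did not pass (0.76, adjusted p = 0.071). It also lost the call when untreated replicate 2 (adjusted p = 0.0515 by edgeR), untreated replicate 3 (0.0841) or r-CRMP2 replicate 1 (0.0561) was left out. Taken after its values were seen, the related NEURL1B rose from 136.2 ± 6.34 to 231.4 ± 14.5 CPM (SD, n = 3). Its log2 fold change was 0.765 (edgeR, adjusted p = 9.66e-09), and 0.456 with library size alone (adjusted p = 1.21e-05). FBXW7, which marks the intracellular domain for degradation, was at -0.11 (edgeR, adjusted p = 0.481), and with library size alone it was called, at -0.41 (adjusted p = 0.0107).

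In the nuclear complex, 4 of 11 coactivator genes were higher and 2 lower, against 28.2% and 30.1% of all genes. With library size alone 3 coactivator genes were higher and 5 lower. RBPJ rose from 54.6 ± 4.24 to 87.9 ± 4.53 CPM (SD, n = 3), a log2 fold change of 0.69 (SE 0.077, edgeR, adjusted p = 1.12e-07), and MAML1, a Mastermind coactivator, rose by 0.77 (edgeR, adjusted p = 6.73e-09). Taken after their values were seen, MAML3 was at -0.44 and EP300 at -0.52 (edgeR, adjusted p = 2.6e-05 and 2.61e-05). MAML2 was at 0.08 (edgeR, adjusted p = 0.632), so the Mastermind genes did not all rise. CCNC, the cyclin of the Mediator kinase module, was at 0.04 (edgeR, adjusted p = 0.639). Of 14 corepressor genes 9 were higher and 3 lower, against 28.2% and 30.1% of all genes, but with library size alone the balance turned, with 1 higher and 6 lower. TLE3 and TLE1, Groucho corepressors that HES proteins recruit, rose by 0.55 and 0.41 (edgeR, adjusted p = 6.56e-07 and 0.00085), and TLE2 was at 0.04 (adjusted p = 0.631). With library size alone TLE1 was at 0.10 (edgeR, adjusted p = 0.346), and CCNC and TLE2 were at -0.27 each.

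Other HES family genes did not all move with HES1. HES4 rose from 33.0 ± 3.36 to 67.1 ± 10.8 CPM (SD, n = 3), a log2 fold change of 1.02 (SE 0.16, edgeR, adjusted p = 4.35e-08), while HES2 fell from 4.30 ± 0.255 to 1.37 ± 0.0633 CPM, a log2 fold change of -1.65 (SE 0.060, edgeR, adjusted p = 9.74e-07). HES4 stayed called but was below 1 with library size alone (0.709), without untreated replicate 1 (0.951) and without r-CRMP2 replicate 2 (0.897). HES6 was at -0.06 (edgeR, adjusted p = 0.865). Taken after their values were seen, HES7 rose by 0.52 (edgeR, adjusted p = 1.06e-05), and NRARP, a Notch target that feeds back on the nuclear complex, was at -0.32 (edgeR, adjusted p = 0.0188). The NRARP call was lost without untreated replicate 2 (adjusted p = 0.0796 by edgeR) and without r-CRMP2 replicate 2 (0.121). HEYL had 9 to 19 counts in untreated and 0 to 4 in r-CRMP2 libraries and was not tested.

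Of 6 other ligands and ligand-like genes tested, 2 were higher and none lower, while the other 4 did not pass. Among all genes, 28.2% were higher and 30.1% lower. DLK2, a membrane protein related to Delta, was at 0.73 (edgeR, adjusted p = 0.00315) on 53 to 85 counts, and with library size alone it did not pass (0.42, adjusted p = 0.0617). EGFL7, a secreted protein of endothelium that binds Notch, rose by 0.61 (edgeR, adjusted p = 8.72e-06). DNER, a neuronal ligand, was at 0.02 with TMM (edgeR, adjusted p = 0.794) and at -0.29 with library size alone (adjusted p = 0.000486).

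The genes whose pattern lay nearest to a member were found by the distance of log2 CPM, centred on each gene's mean, over the 6 libraries and 16221 genes. For NOTCH1 these were CKAP5 (distance 0.0628), a microtubule-binding protein, BAZ2A (0.0738) and SEC24B (0.0763), each abundant and with log2 fold changes of 0.66, 0.66 and 0.69. For HES1 no abundant gene came as near: the nearest were ENSG00000261216.1 (0.458), MIR7-1 (0.465) and LOC102724050 (0.491), all below 3 CPM with r-CRMP2. The points are 6 libraries in 2 groups, so nearness says only that the genes had like values in these libraries.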

How the data were processed

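RNA selected for poly(A) was sequenced from 6 libraries of A2780 cells (3 untreated, 3 with r-CRMP2). For each gene and library the authors deposited read counts and TPM, and TPM recomputed from the deposited counts and gene lengths differed by at most 4.72e-06. The submitters' processing notes name FastQC, HISAT2, DESeq2 and hg19. The counting tool, its annotation and its strand setting are not given in the sources used here.

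Counts were tested with edgeR 4.0.16 (quasi-likelihood test, TMM factors 0.8785 to 1.123, filterByExpr) under R 4.3.3 with limma 3.58.1, over all 16222 genes kept, and p-values were adjusted by Benjamini-Hochberg. The thresholds were an adjusted p of 0.05 and, where stated, an absolute log2 fold change of 1. The SE is that of the group difference in log2 CPM (prior count 2). Shares and ratios were compared with exact two-sided permutation tests. Replicates differed by more than counting noise, so none was merged. The members and gene lists were chosen with earlier results of these data known. Pathway genes were named if past both thresholds, or as the 2 largest and the smallest change of a role, and the 3 nearest genes were named for HES1 and for NOTCH1. Alternatives were RLE factors, library size alone, no filter, at least 10 counts in every library, DESeq2 1.42.0, the replicate number as a block and leaving out each library. The values of 1 pathway gene are not reported here. The scripts were tested on simulated data. Same-numbered libraries did not deviate together (correlations -0.0209, 0.0038 and -0.0252 over genes), so the numbers were not taken as pairs.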

Additional observations from a re-analysis of the deposited data

How the results depend on the processing

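Directions of the 6 members called held in all 12 alternatives, and their calls did too: HES1 ranged from 2.32 to 2.83, HEY1 from 1.85 to 2.29, JAG1 from 0.66 to 1.01, JAG2 from 0.38 to 0.78, NOTCH1 from 0.34 to 0.71 and NOTCH2 from -1.16 to -0.72 on the log2 scale. With library size alone NOTCH4 was called as well, at -1.24 (edgeR, adjusted p = 0.0173), NOTCH3 was at -0.001, and the counts were 2 members lower, 2 past both thresholds on the lower side, 10 pathway genes higher, 27 lower and 1 past both thresholds on the higher side. Direction also changed with library size alone for DNER (-0.29), APH1A (-0.24), CCNC (-0.27) and TLE2 (-0.27). Leaving out 1 library gave 1 to 2 members lower, 2 to 3 past both thresholds on the higher side and 0 to 1 on the lower side, 19 to 27 pathway genes higher, 2 to 3 past both thresholds on the higher side and 2 to 5 on the lower side. NOTCH4 ranged from -1.45 to -0.65 over these fits, and the member counts moved without r-CRMP2 replicate 1, where NOTCH2 was at -1.07, and without r-CRMP2 replicate 2. Over the same fits DNER ranged from -0.001 (without r-CRMP2 replicate 3) to 0.048, CCNC from -0.001 (without untreated replicate 2) to 0.079 and HES6 from -0.37 to 0.29 (without untreated replicate 3).

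In TMM-scaled CPM in place of TPM, chosen after seeing the data, the log2 ratio of the summed level was -0.18 against -0.42 for receptors, 0.89 against 0.57 for ligands and 2.25 against 1.97 for HES1, HEY1 and HEY2. FBXW7 was called with library size alone (-0.41).

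The replicate numbers mark no pairing stated in the labels. With the number as a block, HES1 was at 2.64, HEY1 at 2.15, JAG1 at 0.97, NOTCH1 at 0.65 and NOTCH2 at -0.88, and 24 pathway genes were higher and 15 lower. No member's call changed. Depth limits DLL1, HEY2, NOTCH3 and NOTCH4, whose counts were 44 or fewer in every library.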
